A study of Homo sapiens with 7 samples.

Results

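The very wide H3K9Ac domains of HCT116 cells were the intervals of the deposited H3K9Ac peak list whose width, end minus start, was 10000 bp or more. There were 603 such domains among 34164 H3K9Ac intervals, which is 1.77% of the intervals. They held 9.75 Mb of the 82.2 Mb in the list, or 11.9% of its length. HCT116 is an established human colorectal carcinoma cell line. The cells, for which the labels name no treatment, were used at 200000 per well in a 96-well plate and were crosslinked and sonicated for 6 min per well in PIXUL, an ultrasound instrument that shears chromatin directly in the culture plate. Each antibody was used on chromatin from a single well, so H3K9Ac, H3K4me1, H3K4me3, H3K36me3, H3K27me3 and CTCF have 1 library each. An H3K27Ac library of the series was not analysed here. With 1 library per mark there is no replicate error, no difference below carries a test, and the 95% Wilson intervals cover counting error only. The read depth of the libraries is unknown, because the peak lists hold no read numbers.

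Acetylation of lysine 9 on histone H3 is laid down by acetyltransferases such as GCN5 and PCAF and is found at active promoters and enhancers. H3K4me3 marks promoters, and H3K4me1 marks enhancers and the flanks of promoters. SETD2 deposits H3K36me3 behind elongating RNA polymerase II in gene bodies, Polycomb repressive complex deposits H3K27me3, and CTCF binds a long DNA motif with its zinc fingers and anchors chromatin loops. Long stretches of acetylated chromatin are known from clusters of enhancers and from highly transcribed genes. Below, a peak of another mark was counted where it passed the limits stated in the methods of the study. For H3K4me3, H3K36me3 and CTCF the fold enrichment had to exceed 5 at q below 1e-10. For the broader H3K4me1 and H3K27me3 it had to exceed 2 at q below 0.001. A longer interval has more chances to overlap any peak, so the shares of each mark are given beside those among all H3K9Ac intervals and among the 2324 intervals of 5000 to under 10000 bp.

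CTCF sites inside the domains are shown first, because CTCF was the only one of these marks with a known DNA motif. The core searched on both strands reads CC, any 3 bases, AGG, any base and GGC. It occurred in 131 of the 327 CTCF peaks that touched a domain (40.1%, interval 34.9 to 45.5), against 28.7% of all 24536 CTCF peaks and 38.9% of the 808 CTCF peaks in intervals of 5000 to under 10000 bp. Median peak widths in these sets were 949, 739 and 935.5 bp, and a wider peak offers more bases to match. The sites below lay in CTCF peaks of 5 of the wider domains. The SYTL3 domain meant here (chr6:159122081-159153952, 31872 bp) held 2 CTCF peaks and no H3K4me3 peak, and is not the one shared with EZR described later. Sites are written 5′ to 3′ on the strand of the motif and carry the core in capitals (hg19).
LINC-PINT domain, chr7:130581883-130581912, plus strand: ttgtgctggCCACGAGGTGGCagcctcgca
TERF2 and CYB5B domain, chr16:69430099-69430128, plus strand: cttaaacttCCAGCAGGGGGCagcaacgat
SYTL3 domain, chr6:159125391-159125420, plus strand: tcgctgcagCCGGCAGGGGGCagcagaaag
MIR23AHG domain, chr19:13973230-13973259, minus strand: ctgcagccaCCAGCAGGGGGCagcagagtc
BCL9L domain, left site, chr11:118777888-118777917, plus strand: ctccactaaCCAGTAGGTGGCagcataggc
BCL9L domain, right site, chr11:118801129-118801158, minus strand: cagatttagCCACCAGGGGGCaaaaaagca
The CTCF peaks around these sites had fold enrichments of 10, 10.4, 19.7, 18.3, 12.5 and 16.3 in the same order. The BCL9L pair were the only core matches in the 4 CTCF peaks of that domain. They lay on opposite strands and pointed towards each other, in peaks centred 1985 bp inside the left edge and 2090 bp inside the right edge. The MIR23AHG domain also held a core match, not printed, in a CTCF peak centred 1034 bp inside its left edge. It lay on the minus strand, as did the printed match near the right edge, so that pair pointed the same way. The printed SYTL3 peak held another match on the minus strand. Over all domains, 22 core matches lay in CTCF peaks whose midpoint was within 1000 bp inside an edge, of which 14 pointed into the domain and 8 out of it. The core occurred 675 times in the domains in total, and 158 of these occurrences (23.4%) were inside a CTCF peak.

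MicroRNA genes were the other sequence feature named inside the domains. GENCODE places 44 of 3043 microRNA genes (1.45%) wholly inside a domain, and 34 of the 44, in 28 domains, matched a mature sequence in RefSeq (GRCh38.p14) by symbol. No 2 of the 48 mature sequences shared a seed. Mature strands of several well-studied ones are shown, to name microRNAs that lay in domains of different width, with the seed, bases 2 to 8, in capitals.
hsa-let-7a-5p (MIR100HG): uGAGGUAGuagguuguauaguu
hsa-miR-100-5p (MIR100HG): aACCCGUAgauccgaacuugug
hsa-miR-125b-5p (MIR100HG): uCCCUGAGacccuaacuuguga
hsa-miR-21-5p (VMP1): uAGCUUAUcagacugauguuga
hsa-miR-23a-3p (MIR23AHG): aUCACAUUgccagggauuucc
hsa-miR-27a-3p (MIR23AHG): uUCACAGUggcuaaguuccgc
hsa-miR-200c-3p (MIR200CHG): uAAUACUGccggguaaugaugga
hsa-miR-141-3p (MIR200CHG): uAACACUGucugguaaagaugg
hsa-miR-196b-5p (HOXA9): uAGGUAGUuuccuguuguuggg
These 9 sequences came from 5 host loci, and their levels were not measured. The let-7a-2 and miR-100 genes lay in the second widest domain (75747 bp), and miR-125b-1 lay in another domain of MIR100HG (19271 bp), which had no H3K4me3 peak and H3K4me1 over 63.4% of its length. MiR-21, a microRNA abundant in many tumours, lay at the end of VMP1 in a domain of 29021 bp that held 1 H3K4me3 peak. The domain of MIR23AHG (30080 bp) held 2 H3K4me3 and 2 CTCF peaks. MIR31 itself lay 30187 bp away from the domain at the start of its host gene MIR31HG.

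The domains were chosen by their H3K9Ac width, so the widths and the H3K9Ac enrichment are given as a description. The narrowest domain was 10004 bp, the median 13226 bp (quartiles 11214.5 and 17030) and the widest 79212 bp, against a median of 1746 bp for the whole list. There were 213 domains of 15000 bp or more, 104 of 20000 or more, 38 of 30000 or more and 8 of 50000 or more. Just inside the limit lay intervals of 10004 bp at PC, which encodes pyruvate carboxylase, 10007 bp at E2F2, and 10009 bp at VTI1A. Just outside lay intervals of 9994 bp at TFPI, 9993 bp at PCDH7 and 9989 bp at TUBGCP6, HDAC10 and MAPK12. The fold enrichment of H3K9Ac over the whole interval ran from 2.79 to 28.5 with a median of 8.32, against 9.72 for intervals of 5000 to under 10000 bp. Of the 603 domains, 469 passed the limits of the methods for H3K9Ac and 134 did not; a coding start site lay in 293 and 10 of these, respectively. The cell type was checked at the start sites of marker genes. H3K9Ac past the limits covered the start of 9 of 15 colon epithelial markers, of 0 of 12 blood cell markers and of 1 of 11 fibroblast and endothelial markers (COL1A1), against 57.7% of all coding genes. The 6 colon markers without it were CDX1, VIL1, LGALS4, CEACAM5, GPA33 and CDH17, which are intestinal genes. Those with it included the intestinal transcription factors CDX2 (17.3-fold) and ELF3 (8.5-fold). The general epithelial genes EPCAM, CDH1, KRT8, KRT18, KRT19, CLDN3 and CLDN4 also had it.

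**Figure D1:**
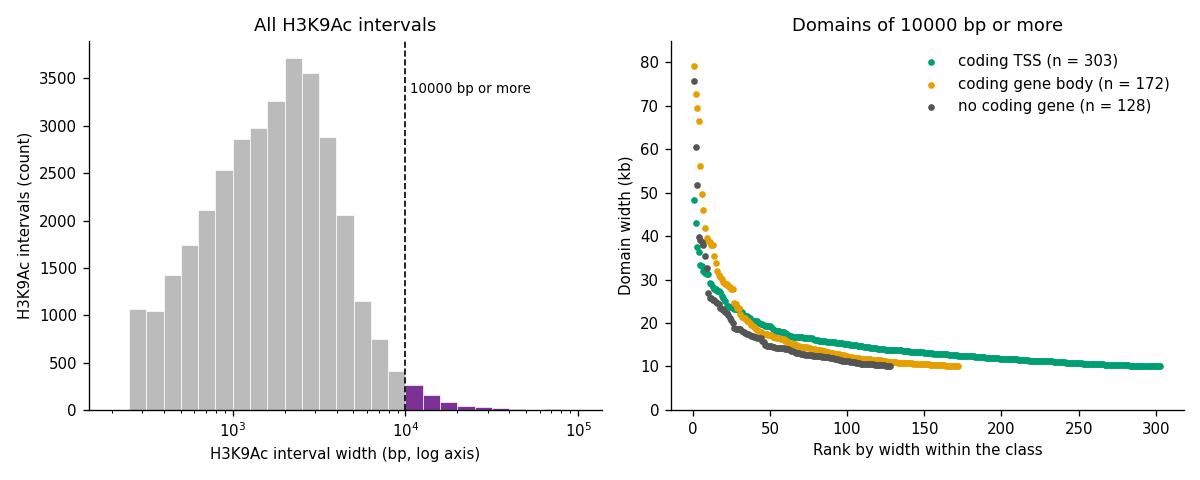
Left, the number of H3K9Ac intervals by width on a log axis, with the 603 domains in purple to the right of the dashed line at 10000 bp. Right, domain width in kb by rank within 3 classes of place. The 303 domains with a coding start site reach 48229 bp, while the other classes reach 79212 and 75747 bp.

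By place, the domains fell into 3 classes. A transcription start site (TSS) of the canonical transcript of a protein-coding gene lay in 303 domains (50.2%, 46.3 to 54.2), against 57.5% of intervals of 5000 to under 10000 bp and 31.9% of all H3K9Ac intervals. Another 172 domains (28.5%, 25.1 to 32.3) overlapped a coding gene but none of these start sites, and 128 (21.2%, 18.2 to 24.7) overlapped no coding gene. If the start of any annotated transcript was counted, whether of a coding gene or not, the share with a TSS became 75%. How many domains of the gene body class held an alternative start of a coding gene was not counted. Median widths differed little, at 13078, 13453.5 and 13584 bp. Median H3K9Ac fold enrichments were 10.9, 5.99 and 6.85. The start sites of 433 of 20162 coding genes (2.15%) lay in a domain, and 627 genes (3.11%) overlapped one. Coding exons and UTRs made up 9.51% of domain length, introns of coding genes 53.5% and sequence outside coding genes 37%.

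The widest domains lay mostly away from coding start sites. Of the 20 widest, 12 were in the body of a coding gene, 6 overlapped no coding gene and 2 held a coding TSS. All 20 were covered by H3K4me1 over 91.8 to 100% of their length. No H3K4me3 peak was found in 11 of them, and no CTCF peak in 13. The widest domain of all (chr4:30807097-30886308, 79212 bp) lay wholly in intron 1 of PCDH7 (ENSG00000169851), which encodes a protocadherin of the cell surface. PCDH7 held 6 domains, which together covered 300999 bp or 70.6% of the gene, and 4 of these were among the 20 widest. Those 4 began 17435, 85106, 190665 and 283674 bp downstream of its TSS, and none held an H3K4me3 peak past the limits. The TSS of PCDH7 was in no domain.

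Several of the 20 widest domains lay over long noncoding RNA (lncRNA) genes. MIR100HG (chr11:122006052-122081798, 75747 bp) was covered by a single H3K4me1 peak over its whole length and held 1 H3K4me3 peak and 1 CTCF peak of 18.6-fold enrichment, which overlapped each other. LINC-PINT, a lncRNA known as a target of p53, held a domain of 60444 bp with no H3K4me3 peak and 2 CTCF peaks. MIR31HG (51764 bp) differed from both in that its own start lay in the domain, and H3K4me3 covered 15.6% of it. The region of MALAT1, an abundant nuclear lncRNA, held a domain of 39806 bp with H3K4me3 over 16%, and that of LINC00963 one of 38606 bp with H3K4me3 over 18.2%. At the lncRNA gene ENSG00000258088 the domain (39064 bp) held its TSS but no H3K4me3 and no CTCF peak.

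Among coding genes, ARHGAP18 held a domain of 69377 bp from intron 1 to intron 3 with no H3K4me3 and no CTCF peak. A domain of 49606 bp lay in intron 2 of PALLD, which encodes the actin-associated protein palladin, and reached into DDX60L. It held 1 H3K4me3 peak over 4.47% of its length. EPHA2, a receptor tyrosine kinase for ephrins, had the widest domain with a coding TSS (48229 bp). Its highest H3K4me3 enrichment was 32.3-fold, yet H3K4me3 covered 8.28% of its length. The domain of TERF2 and CYB5B (43030 bp) held a start site with H3K4me3 near each end and a single H3K4me1 peak over most of the sequence between them, as the map of the widest domains shows. TERF2 encodes a telomere-binding protein, and CYB5B a cytochrome b5 of the outer mitochondrial membrane. In the bodies of STK39, PDE4B, PPP3CA, PHLDB2 and SYTL3 with EZR, and in that of DLGAP1, domains were 38066 to 45915 bp wide. An H3K4me3 peak was found in those of PDE4B, which encodes a cAMP phosphodiesterase, and DLGAP1, which encodes a scaffold protein of synapses, over 5.45 and 5.09% of their length, and in none of the other 4.

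**Figure D2:**
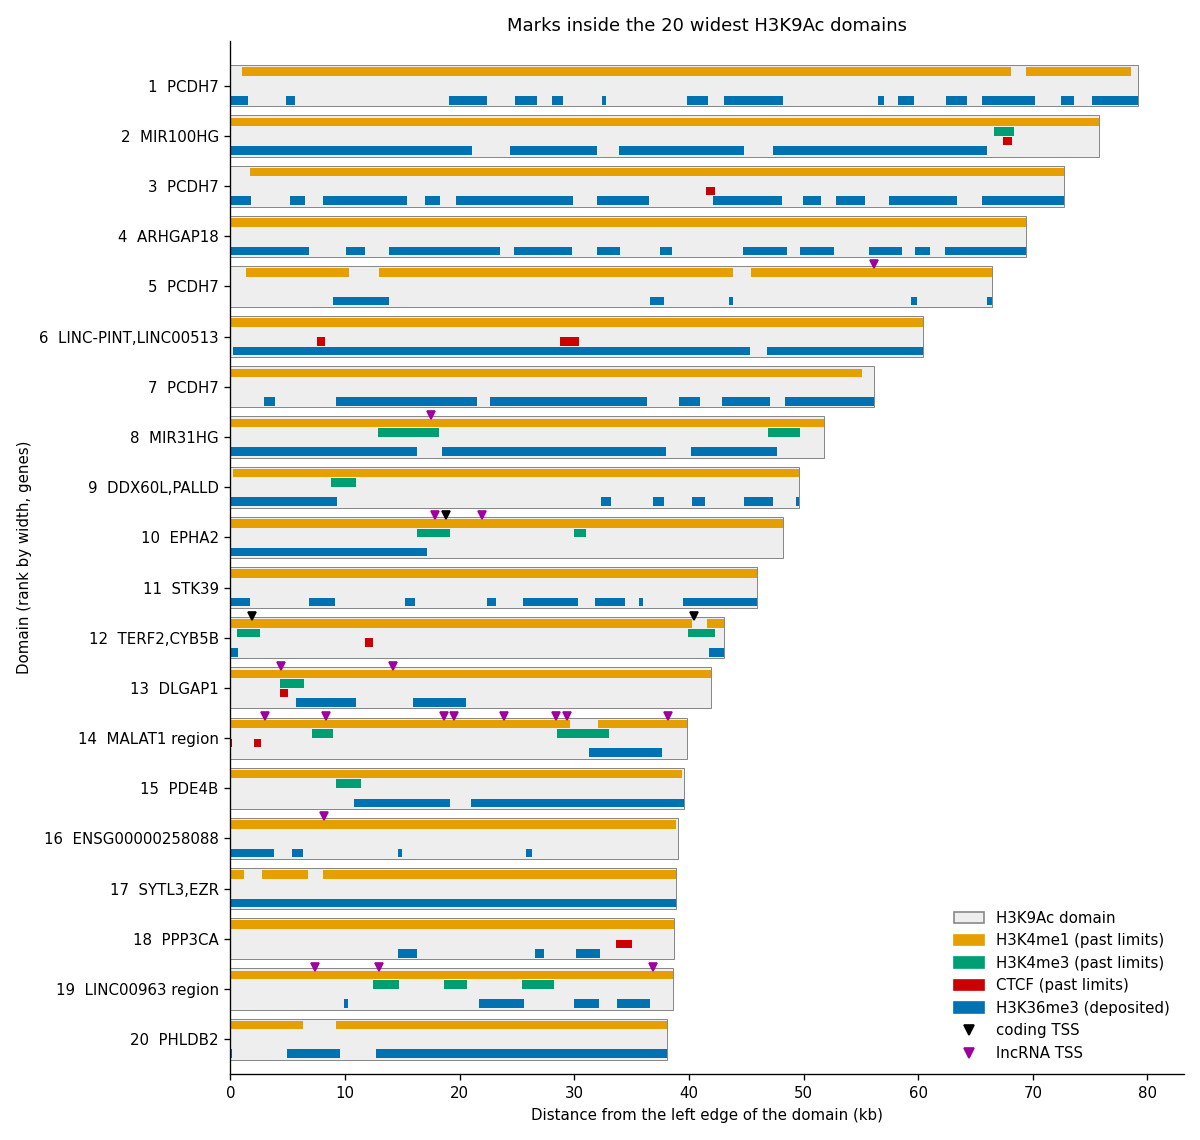
The 20 widest H3K9Ac domains (grey boxes) in kb from their left edge, with H3K4me1, H3K4me3 and CTCF peaks past the limits, all deposited H3K36me3 peaks, and start sites of coding genes (black) and lncRNAs (purple). H3K4me1 (orange) fills 91.8 to 100% of every box, while H3K4me3 (green) is missing from 11 and CTCF (red) from 13.

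Some domains lay near another one, and how many depended on the gap allowed. Joined over gaps of up to 20000 bp, 150 of the 603 fell into 63 clusters of 2 or more, over 50000 bp 239 fell into 92, and over 100000 bp 302 fell into 106. At 50000 bp the largest cluster held 9 domains over 192202 bp around ERRFI1, whose product inhibits the EGF receptor, and domains filled 68.0% of that span. The next held the 6 domains of PCDH7 over 370828 bp (81.2%). Clusters of 5 lay around PTMA, which encodes prothymosin alpha, around EZR and SYTL3, and over lncRNA genes of chromosome 12, where the cluster grew to 9 domains at 100000 bp. Of 627 coding genes that overlapped a domain, 49 overlapped 2 or more and 21 overlapped 3 or more. PALLD overlapped 5, and MPP7, PPP3CA and DST 4 each. MET, the receptor of hepatocyte growth factor, TGFBR2, HMGA2, VMP1 and UBE2H overlapped 3 each, which covered 35.0, 43.8, 48.4, 31.6 and 40.8% of these genes.

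H3K4me1 covered the domains nearly end to end. A peak of it was found in 601 domains (99.7%, 98.8 to 99.9), against 75.1% of all H3K9Ac intervals and 97.4% of those of 5000 to under 10000 bp. With all deposited H3K4me1 peaks every domain held one, as did every interval of 5000 to under 10000 bp, against 89.4% of all H3K9Ac intervals. The peaks past the limits covered 91.4% of domain length, against 79.4% of the 5000 to under 10000 bp intervals and 34.2% of flanks of equal width on both sides. A single H3K4me1 peak overlapped 415 domains, and 218 domains (36.2%, 32.4 to 40.1) lay wholly inside one. At least 90% of the length was covered in 404 domains and less than 50% in 18. These counts were not made for narrower intervals. The median cover per interval was 97.2% in the domains, 91.9% in the 5000 to under 10000 bp intervals and 90.3% in all H3K9Ac intervals. High cover by H3K4me1 was thus shared with narrower H3K9Ac intervals. The exceptions with no H3K4me1 peak past the limits were the domains at NRIP1 (17629 bp) and NECTIN3 (11758 bp), which each held the TSS of that gene and 1 H3K4me3 peak. NRIP1 encodes a nuclear receptor corepressor and NECTIN3 a cell adhesion protein.

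H3K4me3 took a small part of the domains and was most frequent in those with a coding TSS. It was found in 345 domains (57.2%, 53.2 to 61.1), against 36.5% of all H3K9Ac intervals and 64% of those of 5000 to under 10000 bp. With all deposited H3K4me3 peaks the shares were 70.3% of the domains, 72.9% of the 5000 to under 10000 bp intervals and 44.6% of all H3K9Ac intervals. Peaks past the limits covered 15.2% of domain length, compared with 29% of the 5000 to under 10000 bp intervals and 2.54% of the flanks. The share was 96.0% (93.2 to 97.7) in domains with a coding TSS, 14.5% (10 to 20.6) in gene body domains and 22.7% (16.3 to 30.6) in domains without a coding gene. One H3K4me3 peak was found in 236 domains, 2 in 94 and 3 or more in 15. Of the 472 H3K4me3 peaks, 341 held a coding TSS (72.2%, against 81.1% of all 12749 H3K4me3 peaks), 36 a lncRNA TSS only and 95 neither. Their median enrichment was 23.7-fold with a coding TSS and 11.7-fold without one, and all H3K4me3 peaks gave 22.4 and 12.3-fold. H3K4me3 covered over 50% of 37 domains, and the highest cover was 92.8% at HOXA9 and HOXA10. Of the 134 domains under the limits for H3K9Ac, 4 held the mark, and of the other 469 it was found in 341 (72.7%, 68.5 to 76.5).

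CTCF was found in 252 domains (41.8%, 37.9 to 45.8), against 23.9% of all H3K9Ac intervals and 30.8% of those of 5000 to under 10000 bp. With all deposited CTCF peaks the shares were 65.2% of the domains, 55.2% of the 5000 to under 10000 bp intervals and 36.9% of all H3K9Ac intervals. Per length the order was the opposite. Midpoints of CTCF peaks numbered 0.327 per 10 kb in the domains, 0.503 in the 5000 to under 10000 bp intervals and 1.05 in narrower ones, with 0.185 in the flanks. The share was 53.1% (47.5 to 58.7) in domains with a coding TSS, 32.6% (26.0 to 39.9) in gene body domains and 27.3% (20.4 to 35.6) in domains without a coding gene. Of the 327 CTCF peaks, 137 (41.9%, 36.7 to 47.3) overlapped an H3K4me3 peak, against 11.9% of all CTCF peaks, whether in an H3K9Ac interval or not. This share was not computed for CTCF peaks in the 5000 to under 10000 bp intervals. H3K4me3 covered 29% of the length of those intervals and 15.2% of domain length. The first 1000 bp inside the edges held 0.531 midpoints per 10 kb and the first 1000 bp outside held 0.108. Farther in, from 1000 to 5000 bp, the value was 0.373, and from 5000 to 10000 bp outside it was 0.201. With all deposited CTCF peaks the zones inside came in the other order, at 0.688 and 0.763. The smallest gap between H3K9Ac intervals was 1221 bp, so the first 1000 bp outside could hold no H3K9Ac interval. The contrast across the edge therefore sets sequence inside an H3K9Ac interval against sequence outside any. Edges of narrower H3K9Ac intervals were not examined.

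The domains with the most CTCF peaks lay on chromosome X over the lncRNA genes DANT1 and DANT2, which flank the macrosatellite repeat DXZ4. One domain (16564 bp) held 6 CTCF peaks and the other (10707 bp) held 4, spaced by 2449 to 3345 bp within each domain, with a median of 2979.5 bp. Their enrichments were 6.59 to 10.9-fold, and none of the 10 peaks held the core motif. Reads from copies of a repeat cannot be assigned to one copy with certainty, so these peaks are uncertain. BCL9L, a coactivator of beta-catenin, had 4 CTCF peaks in a domain of 27266 bp. There were 3 CTCF peaks in each of 7 domains, among them those of CENPX to DCXR and of CBARP, ATP5F1D and MIDN, which both also held 3 H3K4me3 peaks.

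**Figure D3:**
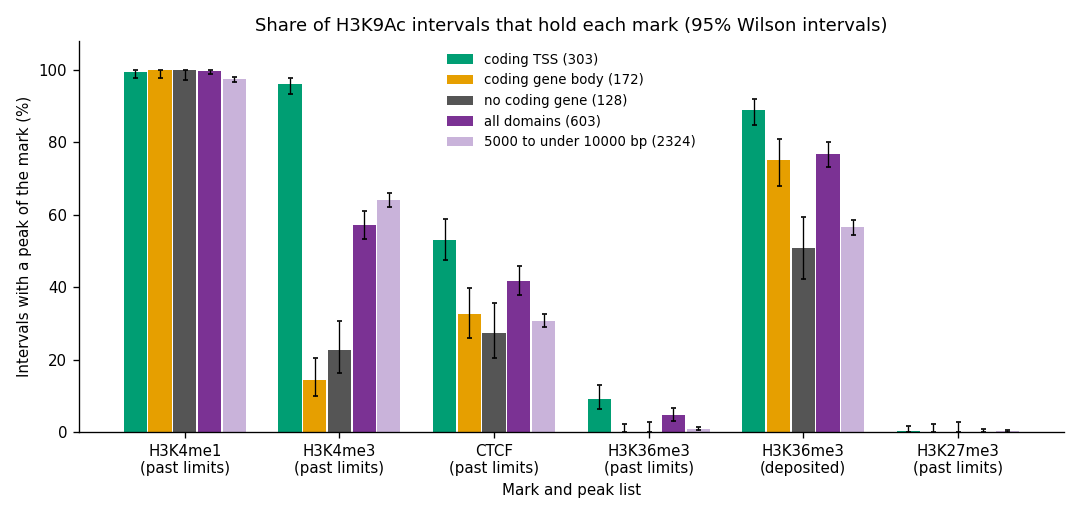
Share of H3K9Ac intervals in percent that held a peak of each mark, by class of domain, for all 603 domains and for the 2324 intervals of 5000 to under 10000 bp, with 95% Wilson intervals as error bars. H3K4me1 stands near 100% in every class, while H3K4me3 falls from 96.0% with a coding start site to 14.5% in gene bodies.

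H3K36me3 depended strongly on the limits. Past the limits of the methods it was found in 28 domains (4.64%, 3.23 to 6.63), against 0.275% of all H3K9Ac intervals and 1.03% of those of 5000 to under 10000 bp. The series held only 90 such H3K36me3 peaks, of which 29 (32.2%, 23.5 to 42.4) touched a domain. Of the same 90 peaks, 23 touched an interval of 5000 to under 10000 bp. All 28 domains held a coding TSS. Their genes included RPL3, RPL13, RPS15, RPS19, RPL4 and RPLP0, which encode ribosomal proteins, and EEF2 and TPT1, which act in or with translation. HSPA8, ACTG1, FASN, DDX5, HNRNPA2B1, PCNA and H3-3B, genes of heat shock, actin, fatty acid synthesis, RNA processing, replication and chromatin, were also among them. With all deposited H3K36me3 peaks, 463 domains (76.8%, 73.2 to 80.0) held the mark, against 22% of all H3K9Ac intervals and 56.5% of those of 5000 to under 10000 bp. The mark then covered 32.1% of domain length and 33.9% of the flanks. The widest stretches lay at LINC-PINT (97.2% of the domain), MIR100HG (76.8%), the third widest domain (68.1%, PCDH7), ARHGAP18 (63.5%) and MIR31HG (83.6%).

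H3K27me3 was rare. A peak past the limits touched 1 domain (11738 bp), at IGF2BP3, which encodes an RNA-binding protein (0.166%, 0.0293 to 0.933), against 0.749% of all H3K9Ac intervals and 0.258% of those of 5000 to under 10000 bp. With all deposited peaks the shares were 3.15% (2.03 to 4.87), 3.82% and 2.71% in the same order.

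Within the domains the marks had an order in the direction of the gene. In the 215 domains with 1 coding TSS, the domain reached farther downstream of the TSS than upstream in 157 (73.0%, 66.7 to 78.5), with medians of 8949 bp downstream and 4223 bp upstream. Neither this extent nor the order of marks below was computed for narrower H3K9Ac intervals. Whether they are particular to the domains was therefore not tested. At BCL2L1, an inhibitor of apoptosis, 34377 bp lay downstream and 3017 bp upstream. ITPRID2, KITLG and EZR also had 28193 to 33930 bp downstream and 811 to 2382 bp upstream. The opposite was seen at ARHGAP12 (20630 bp upstream, 7294 bp downstream), GDF15 (18298 and 5035 bp) and SP1 (15821 and 2440 bp). MYC had 3532 bp upstream and 8339 bp downstream, and CDH1, the epithelial cadherin, 762 and 10325 bp. At short genes the domain could run past the end of the gene, as at BBS10 (3942 bp long, 20148 bp downstream) and BLID (876 and 18812 bp). The BLID domain (19271 bp) is the same as the MIR100HG domain with miR-125b-1 described above, which had no H3K4me3 peak. The bins below follow the direction of the gene and can therefore extend beyond it. Each domain was then cut into 10 equal bins in the direction of the gene. H3K4me3 covered 30.6% of the first 2 bins, 27% of the middle 2 and 10.6% of the last 2. Deposited H3K36me3 ran the other way, with 8.34, 40.2 and 51.7%, and covered 13.8% of the upstream flank and 55.6% of the downstream flank. H3K4me1 was even, at 85.8, 91.5 and 85.9%.

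**Figure D4:**
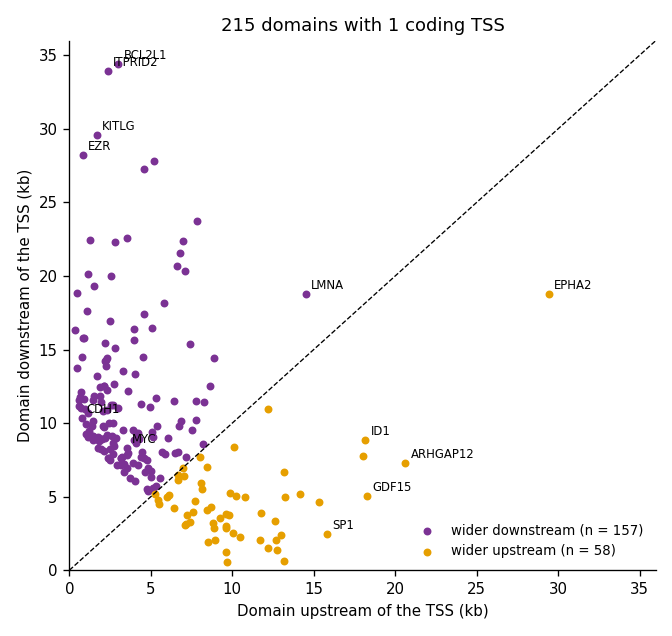
Extent of the domain in kb upstream and downstream of the start site for the 215 domains with 1 coding TSS; points above the dashed line of equal extent reach farther downstream. There are 157 points above the line and 58 below it, with EPHA2 and ARHGAP12 among the latter.

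**Figure D5:**
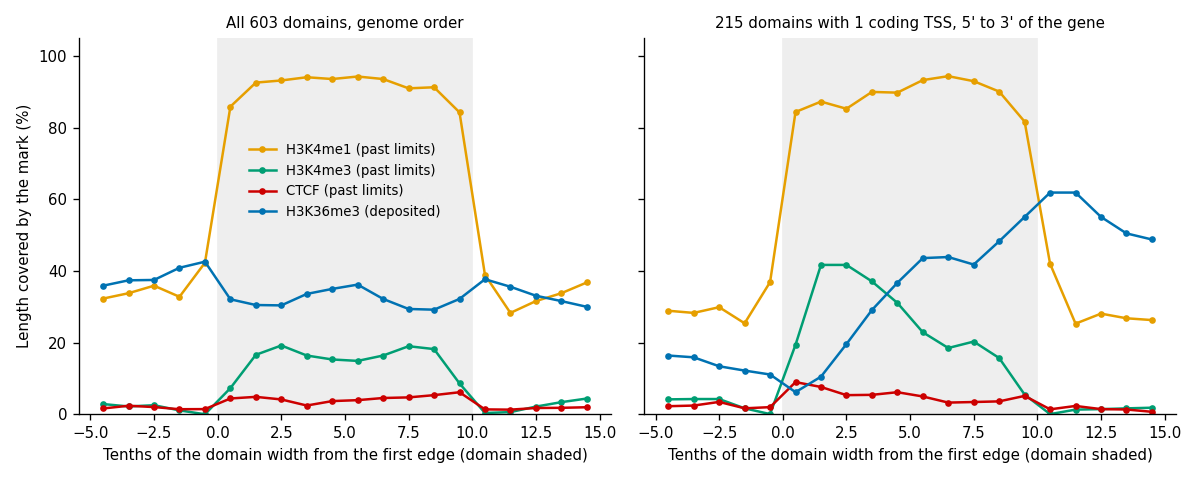
Percent of length covered by each mark in 10 equal bins of the domain and 5 bins of the same size on each side, for all domains in genome order (left) and for the 215 domains with 1 coding TSS turned to the gene (right); the domain is shaded. On the right H3K4me3 (green) is highest near the 5′ side and H3K36me3 (blue) near the 3′ side, while H3K4me1 (orange) is high throughout.

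Domains at several coding start sites were a small group. There were 62 domains with 2 coding start sites and 26 with 3 to 5. The 3 with 5 lay at MFSD3 to C8orf82, which include the helicase gene RECQL4, at a histone gene cluster with H3C1 and H4C1, and at C11orf98 with UQCC3. The histone gene domain (16757 bp) held 3 H3K4me3 peaks and no deposited H3K36me3 peak. Histone genes are similar in sequence to each other, so the placement of their reads is uncertain.

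The genes of the chosen lists were read against 2.15% of coding genes with a TSS in a domain. H3K9Ac past the limits covered the TSS of 57.7% of all coding genes. It covered that of 30 of 30 immediate early genes, 22 of 22 p53 targets, 24 of 26 EGF receptor and MAPK genes and 31 of 37 epithelial genes. For TGF-beta and BMP genes it was 20 of 24, for Wnt genes 20 of 25, for intestinal factors 19 of 28 and for HOX genes 20 of 39. The genes with a TSS in a domain were as follows. Of 37 epithelial adhesion and cytoskeleton genes, 10 had their TSS in a domain, among them KRT8 (15179 bp), KRT18 (13659 bp) and KRT19 (12937 bp), the keratins of simple epithelia, CDH1 (11088 bp) and the tight junction gene CLDN4 (13429 bp). Of 30 immediate early genes, 10 did, among them JUNB (15163 bp), JUND, IER2, NR4A2 and the RNA-binding genes ZFP36, ZFP36L1 and ZFP36L2. Of 25 Wnt genes, 7 did, with RNF43, an inhibitor of Wnt receptors, the widest (31384 bp), followed by TCF7L2 (19423 bp) and CCND1 (16520 bp), while MYC (11872 bp) and AXIN2 (10082 bp) were narrower. Of 24 TGF-beta and BMP genes, 8 did, including the receptor TGFBR2, the inhibitor SMAD7 (16530 bp) and ID1, ID2 and ID3. Of 26 EGF receptor and MAPK genes, 4 did, namely the ligand EREG (27448 bp), ERRFI1 (21215 bp), DUSP5 and PHLDA1. Of 39 HOX genes, 5 did: HOXA9, HOXA10, HOXB4, HOXB7 and HOXB8. Of 28 intestinal transcription factors, 2 did (HES1 and BCL6), and of 22 p53 targets 1 did (GDF15, 23334 bp). Of 23 lncRNA and microRNA host genes found in the annotation, 6 did, and another 5 overlapped a domain; of all 18702 lncRNA genes, 1.41% had a TSS in a domain and 1.68% overlapped one. None of 12 blood cell markers and none of 11 fibroblast and endothelial markers had a TSS in a domain.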

How the data were processed

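HCT116 chromatin was profiled by PIXUL-ChIP-seq with 1 library per mark. According to the labels and methods, reads were aligned to hg19 with BWA 0.7.12 and peaks were called per library with MACS2 in broad mode (cutoff 0.1); the labels name MACS 1.4.2, but the files have the 9-column layout of MACS2. The authors deposited, for each interval, hg19 coordinates, a score (not used), a fold enrichment, which is a linear ratio over background, and −log10 p and q values. Fold enrichment and −log10 q as deposited set the limits. Intervals listed but under the limits were kept where the text says deposited. Broad calling joins nearby signal, so edges and widths depend on the caller and on depth, which is not given in the sources used here.

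Overlaps were counted at 1 bp or more (Python 3.11.15, pandas 2.3.3) and were the same as those of bedtools 2.31.1 in 3015 of 3015 comparisons of a domain with a mark. The counting also recovered all peaks placed in 600 simulated domains. Genes came from GENCODE v44lift37, with the canonical transcript's TSS, on chromosomes 1 to 22, X and Y. Wilson intervals are at 95%. Samples were grouped by antibody from their titles. Named genes were those of the 20 widest domains, list genes with a TSS in a domain, and the 5 domains highest for CTCF, H3K36me3 length, coding start sites or width without H3K4me3. Genes named for TSS extent, for several domains and for limits-passing H3K36me3, the printed motif sites and the printed microRNAs were picked after their values were seen. The domains and the gene lists were chosen with earlier results of these data known.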

Additional observations from a re-analysis of the deposited data

How the results depend on the processing

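No paired analysis was possible because every antibody had only 1 library. Of 55 recomputed values, 38 stayed within the 95% interval of the reported share, or within 1.5 times a reported number, length or density. With only the H3K9Ac intervals past the limits, the shares became 72.7% for H3K4me3, 46.7% for CTCF and 62.5% for a coding TSS. At a width of 15000 bp or more, 213 domains were left, CTCF was in 46.9% and H3K27me3 in 0%. With all deposited peaks of the other mark, the shares were 70.3% for H3K4me3, 100% for H3K4me1, 65.2% for CTCF, 76.8% for H3K36me3 and 3.15% for H3K27me3, with 0.632 CTCF midpoints per 10 kb. The looser limits put H3K36me3 at 43.6% of the domains, against 10.6% of all H3K9Ac intervals. Asking for at least 50% of a peak inside the domain gave 93.7% for H3K4me1 and 0% for H3K27me3. Counting the start of any annotated transcript, whether of a coding gene or not, gave a share with a TSS of 75%. By share, H3K36me3 stood below CTCF past the limits and above H3K4me3 among all deposited peaks. Joining H3K9Ac intervals within 1000 bp changed nothing because the smallest gap was 1221 bp. The values of that setting could not move, yet they are counted among the 55 and the 38. An alternative chosen after seeing the data, joining within 2000 bp, gave 910 domains and kept the other 9 results within those bounds. The cause of these shifts was not tested beyond what each setting adds or removes. Without read numbers, it cannot be said how far depth sets the peaks found or their widths.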

Other observations

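The domains were unevenly spread over the chromosomes. Chromosome 17 held 65, chromosome 12 held 55 and chromosome 19 held 51, which is 8.01, 4.11 and 8.63 domains per 10 Mb against 1.95 over all chromosomes analysed. Per 1000 coding genes the values were 54.7, 52.9 and 34.5 against 29.9 over all, so chromosome 19 stood near the whole on this scale and below chromosomes 10 (44.5), 8 (42.3) and 4 (38.1). As a share of the H3K9Ac intervals on each chromosome the values were 3.02, 3.13 and 2.79%. Chromosome 5 held 9 domains (0.579% of its H3K9Ac intervals), chromosome 13 held 5 (0.790%) and chromosome 21 held 1, at NRIP1 (0.288%). Copy number differences between chromosomes were not examined here.

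Base composition inside the domains followed H3K4me3. The part of the domains covered by H3K4me3 had 59.2% G and C bases and 57.0 CpG dinucleotides per kb, while the part without H3K4me3 had 45.4% and 14.1 per kb. The flanks had 46.0% and 16.1 per kb, and hg19 as a whole had 40.9% and 9.85 per kb. Domains with a coding TSS (52.2%, 29.5 CpG per kb) stood above gene body domains (42.9%, 12.3 per kb) and domains without a coding gene (44.2%, 13.9 per kb). The widest domain, in PCDH7, had 36.1% and 6.02 per kb.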
